A study of Mus musculus with 19 samples.

Results

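Type I interferon-stimulated genes were followed as a module of 41 genes in tumours of the mouse oral cavity. The members were listed by name, and a gene counted where it held 10 or more counts in 3 or more of the 19 libraries. All 41 listed genes met this, out of 55487 genes in the deposited table, and all 41 were among the 16909 genes with enough counts to be tested. The tissue is labelled squamous cell carcinoma of the mouth, from C57BL/6J mice whose drinking water held 100 µg/ml of 4NQO, a carcinogen that damages DNA. Exposure began at 6 weeks of age and lasted 10 weeks in every group. There were 4 samples with vehicle, 4 with regorafenib at 5 mg/kg/day, 3 with an antibody against PD1, 5 with the combination of both drugs and 3 with an anti-CD40 agonist. The labels give no dose for either antibody and no separate dose for the combination. Regorafenib inhibits several receptor kinases of vessel and stromal cells, PD1 is a receptor that restrains T cells, and CD40 is an activating receptor of antigen-presenting cells.

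Type I interferons are secreted when a cell detects foreign or misplaced nucleic acid. They bind a shared receptor made of Ifnar1 and Ifnar2, and the kinases Jak1 and Tyk2 then activate a transcription factor complex that holds Stat2 and Irf9. That complex binds a DNA motif known as the interferon-stimulated response element (ISRE) and switches on the genes described here, which sense viral RNA, block translation or virus budding, and feed back on the pathway. Interferon gamma from T and NK cells acts through another receptor, and many of the same genes respond to it in part. In tumours these genes are used as a sign of interferon exposure of tumour, stromal and immune cells alike.

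Library totals ran from 16776177 to 24969492 counts, and the 41 genes together took 0.0294% to 0.0799% of them. Levels are CPM, that is counts scaled for library depth, here after TMM scaling, and differences are log2 estimates with standard errors (SE) from 1 edgeR fit of all 19 libraries. A gene was called where its p-value, adjusted over all tested genes, was under 0.05. Whether the samples stem from different mice is not stated in the labels, and p-values therefore measure only the spread among these libraries, which may be technical. Transcripts of skeletal muscle, which surrounds oral tumours, stood apart in 1 group: the summed level of 8 muscle genes was 20235 to 25578 CPM in the regorafenib libraries and 27583 to 41894 CPM in the other 15. In bulk samples such as these, fewer cells of a type and less RNA per cell cannot be told apart. Keratinocyte genes, the lineage of squamous carcinoma, summed to 53565 CPM or more in every library. Markers of that lineage were therefore present, but they do not tell carcinoma from other squamous epithelium.

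The ISRE letters lay in the promoters of many members. Of the 41 genes, 29 had a window in the RefSeq promoter table (GRCm38.p6), which covers 250 bases before to 50 after each start, and 12 had none (Dhx58, Usp18, Zbp1, Oas2, Oas1b, Ifi27, Rtp4, Ifi204, Mx1, Mx2, Parp14 and Parp9). The ISRE core searched was GAAANNGAAA on both strands, overlapping matches counted. It lay in a window of 16 of the 29 members (55.2%), against 3.99% of 27025 genes in the table and 3.44% of 32851 windows. The motif TTCNNNGAA, known from promoters that respond to interferon gamma and read the same on both strands, lay in 5 of the 29 (17.2%) against 9.55% of all genes. A match describes letters only, and no match says only that these letters are not in the window.

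The stretches below show where the ISRE core lies upstream of the start of 7 members. Of these, 4 were chosen because they rose and fell together between libraries (Isg15, Ifit1, Bst2 and, less closely, Ifit3). The other 3 were chosen because they followed that pattern less (Ifit3b, Rsad2 and Slfn5). The stretches run 5′ to 3′ on the gene's strand, come from RefSeq windows on GRCm38.p6 and hold no annotated exon. Capitals show the ISRE core or its reverse complement. Isg15 has 3 overlapping copies, the first at position -78 from the start, on chr4:156200819-156200938, minus strand. Ifit1 has 2 copies from position -104, on chr19:34640759-34640870, plus strand. The windows of Ifit3 (chr19:34583349-34583528, plus strand) and Ifit3b (chr19:34607747-34607956, plus strand) carry the same 2 capitalised stretches, from positions -156 and -188. Bst2 has 2 overlapping copies from -130, on chr8:71537473-71537622, minus strand. Rsad2 has 1 at -120, on chr12:26456453-26456602, minus strand, and Slfn5 has 1 at -155, on chr11:82951922-82951984, plus strand, in an intron of a longer transcript of the gene.
Isg15: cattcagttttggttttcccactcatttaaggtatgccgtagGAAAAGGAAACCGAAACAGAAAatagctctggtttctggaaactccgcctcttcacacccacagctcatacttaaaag
Ifit1: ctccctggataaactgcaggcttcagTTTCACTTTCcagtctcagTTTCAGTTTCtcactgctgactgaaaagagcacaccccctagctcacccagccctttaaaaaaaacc
Ifit3: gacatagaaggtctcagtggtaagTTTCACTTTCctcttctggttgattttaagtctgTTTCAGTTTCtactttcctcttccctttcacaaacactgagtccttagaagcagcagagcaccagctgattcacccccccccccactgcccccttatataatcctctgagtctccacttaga
Ifit3b: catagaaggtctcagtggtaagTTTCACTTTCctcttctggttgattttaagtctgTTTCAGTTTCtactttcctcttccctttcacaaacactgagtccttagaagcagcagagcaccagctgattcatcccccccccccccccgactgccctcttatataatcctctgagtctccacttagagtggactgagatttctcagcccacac
Bst2: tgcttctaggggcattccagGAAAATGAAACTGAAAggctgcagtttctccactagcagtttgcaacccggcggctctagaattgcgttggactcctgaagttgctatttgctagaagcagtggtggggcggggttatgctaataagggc
Rsad2: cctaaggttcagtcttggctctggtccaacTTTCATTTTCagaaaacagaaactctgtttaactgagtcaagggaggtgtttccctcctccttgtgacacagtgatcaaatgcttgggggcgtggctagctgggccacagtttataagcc
Slfn5: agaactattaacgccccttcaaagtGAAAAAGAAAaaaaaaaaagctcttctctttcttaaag

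Many of the members lie side by side in the genome. On GRCm38, 21 of the 41 fell into 8 clusters with at most 200 kb between neighbours. The 4 IFIT genes lie on chromosome 19 from 34550694 to 34650009, and Oas2, Oas3, Oas1b and Oas1a on chromosome 5 from 120730333 to 120907521. Parp14, Dtx3l and Parp9 share chromosome 16 from 35832874 to 35972605, where Dtx3l and Parp9 overlap on opposite strands. Rsad2 and Cmpk2 are neighbours on chromosome 12 from 26442746 to 26479837. Ifit3 with Ifit3b, and Oas1a with Oas1b, are paralogues that may share reads, and the strand setting of the count is not given, so the separate counts of these pairs and of Dtx3l and Parp9 are uncertain. Mx2 and Oas1b are annotated as polymorphic pseudogenes, that is, genes disrupted in the reference strain but not in others.

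Levels per exon length (RPKM) ordered the members over a wide range. In vehicle tumours Ifi27 led at 25.4 ± 2.09 RPKM (SD, n = 4), followed by Isg15 at 16.2 ± 7.05, Bst2 at 9.88 ± 2.17 and Ifi35 at 7.87 ± 0.959. Isg15 and Bst2, and Bst2 and Ifi35, lay within their combined spread. The lowest were Mx1 at 0.310 ± 0.167, Herc6 at 0.327 ± 0.0561 and Mx2 at 0.373 ± 0.139, 3 levels that did not differ beyond their spread.

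The module was highest with anti-PD1 alone and lowest with regorafenib alone. The mean log2 CPM of the 41 genes was 3.55 ± 0.36 (SD, n = 3) with anti-PD1, 3.07 ± 0.49 (n = 5) with the combination, 3.04 ± 0.53 (n = 3) with anti-CD40, 2.89 ± 0.36 (n = 4) with vehicle and 2.65 ± 0.34 (n = 4) with regorafenib. Every member was higher with anti-PD1 than with vehicle and than with regorafenib, while the SDs within groups were as large as most differences between group means. Between 2 groups, calls came in the comparisons with regorafenib: 9 members rose from regorafenib to anti-PD1, where 8.34% of all genes were called, and 4 rose from regorafenib to the combination, where 10.5% were.

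**Figure D1:**
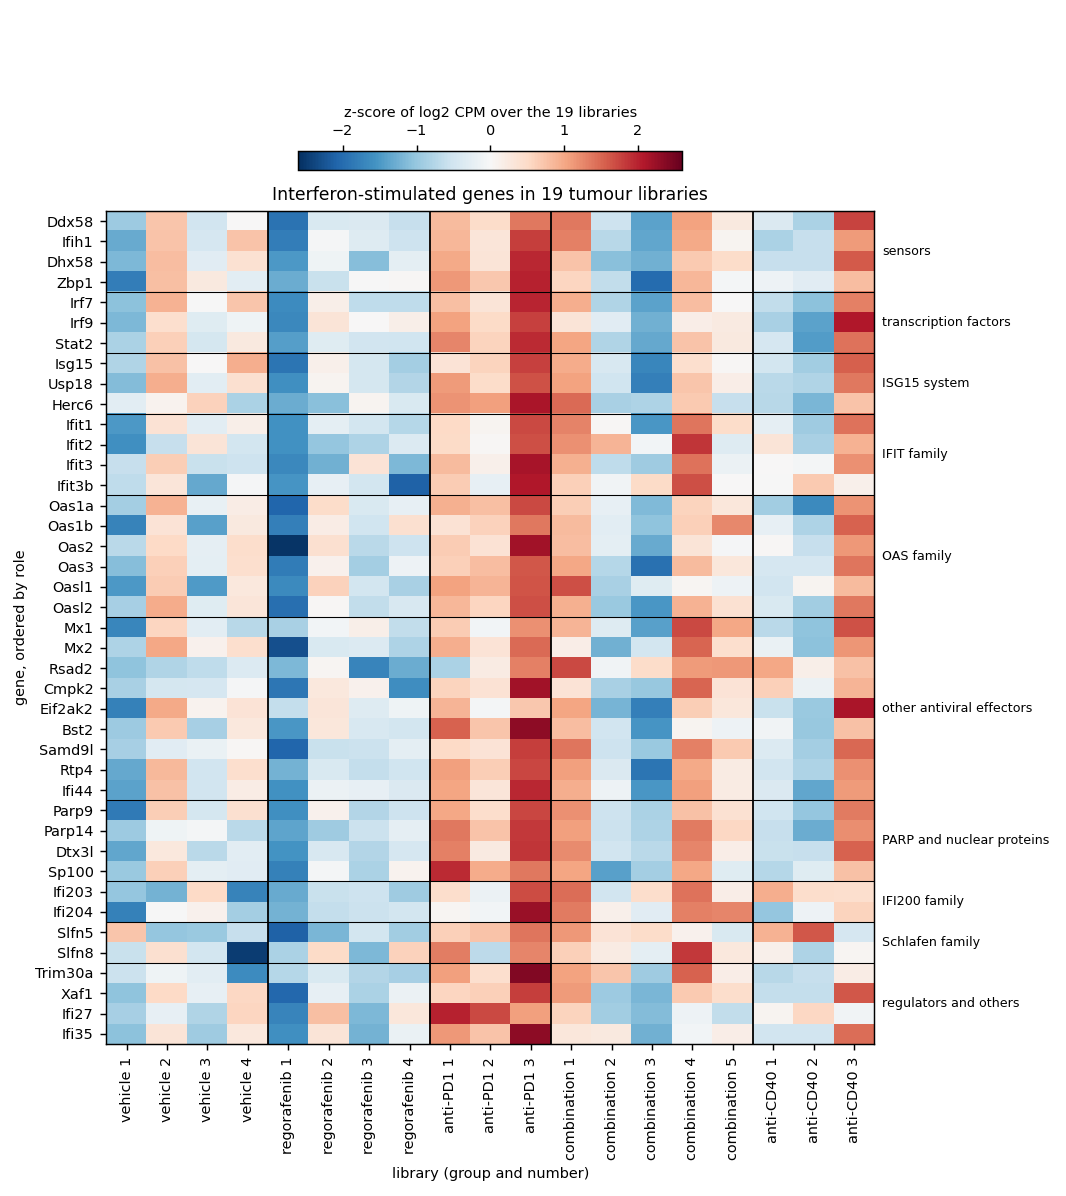
Levels of the 41 genes (lines, grouped by role) in the 19 libraries (columns, grouped by treatment), as the z-score of each gene's log2 CPM over the libraries, red high and blue low. Anti-PD1 3 is the highest library for 28 of the 41 genes and regorafenib 1 the lowest for 25.

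The members were high or low together from library to library within a group. Their mean log2 CPM was 2.43, 3.27, 2.84 and 3.03 in vehicle 1 to 4, 2.16, 2.95, 2.74 and 2.74 in regorafenib 1 to 4 and 3.45, 3.24 and 3.95 in anti-PD1 1 to 3. It was 3.53, 2.75, 2.41, 3.51 and 3.15 in combination 1 to 5 and 2.83, 2.64 and 3.64 in anti-CD40 1 to 3. In the vehicle group, vehicle 1 was the lowest library for 35 of the 41 genes and vehicle 2 the highest for 28. Regorafenib 1 was the lowest of its group for 37 genes and regorafenib 2 the highest for 25. Anti-PD1 3 was the highest of its group for 37, combination 3 the lowest of its group for 32 with combination 1 the highest for 27, and anti-CD40 3 the highest of its group for 35. With group means removed, a member's Pearson r with the mean of the other members over the 19 libraries had a median of 0.907 (lowest -0.226, highest 0.988), and 29 of the 41 exceeded 0.8. These correlations describe libraries that share their depth and tissue makeup, and carry no test. The median SD of log2 CPM over the libraries was 0.44 for the members, against 0.20 for all tested genes, while the median share of variance between groups was 35.9%, against 33.6% for all tested genes.

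RNA sensors were among the genes that moved with the shared pattern. Zbp1, which detects Z-form nucleic acid and can start cell death, stood at 0.754, 3.68, 2.66 and 1.92 CPM in vehicle 1 to 4 and 1.03, 1.59, 2.25 and 2.30 in regorafenib 1 to 4. It stood at 4.52, 3.49 and 7.68 CPM in anti-PD1 1 to 3 and 3.20, 1.54, 0.668, 3.85 and 2.19 in combination 1 to 5, with 2.09, 1.91 and 3.70 in anti-CD40 1 to 3. The 3 anti-PD1 libraries were above all regorafenib libraries, while vehicle 2 lay above the lowest anti-PD1 library. Its difference was 1.23 ± 0.50 (SE; edgeR adjusted p = 0.449) between anti-PD1 and vehicle and 1.54 ± 0.50 (SE; edgeR adjusted p = 0.0649) between anti-PD1 and regorafenib.

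Ifih1, which encodes the long double-stranded RNA sensor MDA5, varied less. It stood at 11.2, 19.8, 14.3 and 19.8 CPM in vehicle 1 to 4 and 9.75, 16.0, 14.6 and 13.9 in regorafenib 1 to 4. With the other treatments its levels were 20.4, 17.6 and 26.5 CPM in anti-PD1 1 to 3 and 23.2, 13.2, 11.0, 21.2 and 16.4 in combination 1 to 5, and 12.8, 13.6 and 21.9 in anti-CD40 1 to 3. Vehicle 2 and vehicle 4 reached the range of the anti-PD1 libraries, and the difference between anti-PD1 and vehicle was 0.41 ± 0.27 (SE; edgeR adjusted p = 0.678). Ddx58, the sensor RIG-I, and Dhx58, their regulator LGP2, differed by 0.46 and 0.61 in the same comparison and by 0.74 and 0.97 between anti-PD1 and regorafenib, with no adjusted p under 0.05.

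Among the transcription factors of the response, Irf7 tracked the shared pattern more closely than any other member (r = 0.988 with group means removed). Irf7, which drives the second wave of interferon production, stood at 5.16, 12.8, 8.42 and 11.8 CPM in vehicle 1 to 4 and 3.96, 9.04, 6.19 and 6.21 in regorafenib 1 to 4. The level was 12.2, 9.91 and 21.2 CPM in anti-PD1 1 to 3 and 13.1, 5.85, 4.40, 12.3 and 8.47 in combination 1 to 5, and 6.27, 5.13 and 15.5 in anti-CD40 1 to 3. Anti-PD1 3 and anti-CD40 3 were the 2 highest libraries, and regorafenib 1 the lowest. Between anti-PD1 and regorafenib it differed by 1.18 ± 0.46 (SE; edgeR adjusted p = 0.109).

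Stat2, a signal carrier from the interferon receptor to the nucleus, stood at 17.9, 28.4, 20.2 and 25.3 CPM in vehicle 1 to 4 and 14.8, 21.04, 19.9 and 19.8 in regorafenib 1 to 4. In the remaining groups it stood at 35.0, 28.1 and 43.3 CPM in anti-PD1 1 to 3 and 32.4, 18.2, 15.2, 29.5 and 25.3 in combination 1 to 5, and 20.3, 14.7 and 36.6 in anti-CD40 1 to 3. Anti-PD1 2 lay just below vehicle 2, so these groups overlapped, and the difference from vehicle was 0.63 ± 0.29 (SE; edgeR adjusted p = 0.529). All anti-PD1 libraries were above all regorafenib libraries (0.91 ± 0.30 SE, edgeR adjusted p = 0.0644). Irf9, the DNA-binding partner of Stat2, differed by 0.49 between anti-PD1 and vehicle and by 0.47 between anti-PD1 and regorafenib, without a call.

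In the ISG15 system, Isg15 and Usp18 had some of the widest ranges over the libraries (3.30 and 2.97 on the log2 scale). The range of Herc6 was narrower (1.39). Isg15, a ubiquitin-like protein that is attached to other proteins, stood at 5.96, 15.6, 9.75 and 17.5 CPM in vehicle 1 to 4 and 2.92, 10.5, 7.26 and 5.54 in regorafenib 1 to 4. Its values were 12.2, 14.0 and 29.7 CPM in anti-PD1 1 to 3 and 17.9, 7.45, 3.34, 12.8 and 9.86 in combination 1 to 5, and 7.15, 5.46 and 25.8 in anti-CD40 1 to 3. Within the anti-CD40 group alone 1 library was far above the other 2, and vehicle 4 exceeded 2 of the 3 anti-PD1 libraries. Isg15 differed by 0.62 ± 0.61 (SE; edgeR adjusted p = 0.792) between anti-PD1 and vehicle and by -0.88 ± 0.59 (SE; edgeR adjusted p = 0.38) between regorafenib and vehicle.

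Usp18, the enzyme that removes Isg15 from proteins and damps the receptor, stood at 2.14, 7.76, 3.67 and 5.603 CPM in vehicle 1 to 4 and 1.61, 4.52, 3.27 and 2.704 in regorafenib 1 to 4. It reached 8.603, 5.81 and 12.0 CPM in anti-PD1 1 to 3 and 8.31, 3.13, 1.45, 6.79 and 4.83 in combination 1 to 5, and 2.82, 2.68 and 10.1 in anti-CD40 1 to 3. Anti-PD1 and regorafenib did not overlap, and differed by 1.54 ± 0.59 (SE; edgeR adjusted p = 0.104). Herc6, the ligase that attaches Isg15 in mice, was called in that comparison: it rose from a mean of 2.57 ± 0.473 CPM (SD, n = 4) with regorafenib to 4.74 ± 0.830 (n = 3) with anti-PD1, by 0.89 ± 0.24 (SE; edgeR adjusted p = 0.0357).

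**Figure D2:**
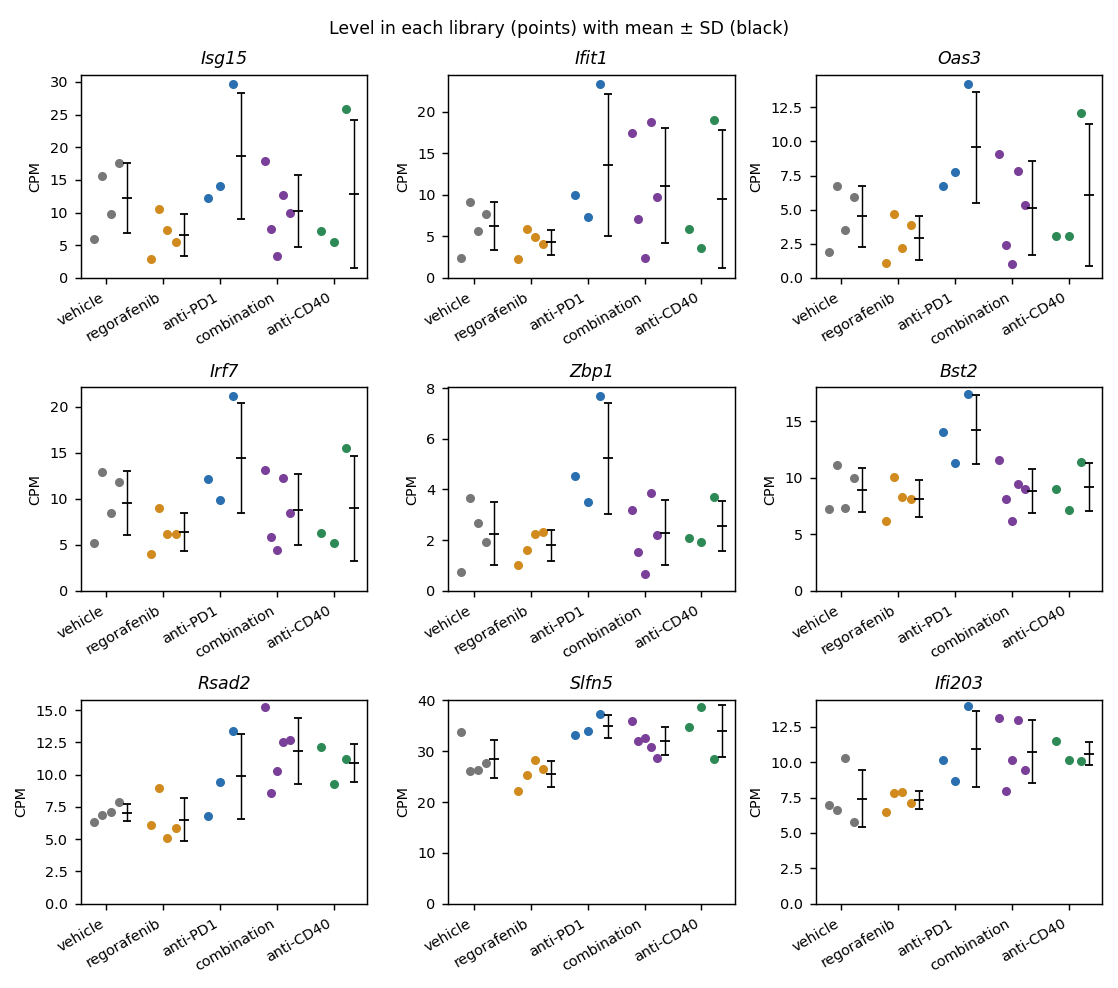
CPM of 9 members in each library (points) by group, with the group mean and SD in black, on linear axes from 0. Isg15, Ifit1, Oas3, Irf7 and Zbp1 spread widely within groups, with anti-PD1 3 the highest library for each, while Rsad2, Slfn5 and Ifi203 spread less within groups.

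The IFIT genes encode proteins that bind foreign RNA ends and block its translation. Ifit1 stood at 2.42, 9.12, 5.70 and 7.73 CPM in vehicle 1 to 4 and 2.29, 5.85, 4.96 and 4.12 in regorafenib 1 to 4. It stood at 10.0, 7.36 and 23.4 CPM in anti-PD1 1 to 3 and 17.4, 7.10, 2.395, 18.7 and 9.76 in combination 1 to 5, and 5.90, 3.60 and 19 in anti-CD40 1 to 3. Combination 3 was close to the lowest vehicle and regorafenib libraries, while combination 1, combination 4 and combination 5 exceeded every vehicle library. The differences were 1.65 ± 0.69 (SE; edgeR adjusted p = 0.134) between anti-PD1 and regorafenib and 1.36 ± 0.63 (SE; edgeR adjusted p = 0.174) between the combination and regorafenib.

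Ifit3 stood at 3.34, 5.29, 3.36 and 3.42 CPM in vehicle 1 to 4 and 2.24, 2.61, 4.79 and 2.704 in regorafenib 1 to 4, where vehicle 2 and regorafenib 3 were apart from the rest of their groups. Its levels were 5.69, 4.37 and 9.29 CPM in anti-PD1 1 to 3 and 5.89, 3.25, 2.95, 7.08 and 3.94 in combination 1 to 5, and 4.18, 4.10 and 6.53 in anti-CD40 1 to 3. It differed by 1.07 ± 0.33 (SE; edgeR adjusted p = 0.0537) between anti-PD1 and regorafenib. Ifit2 and Ifit3b were each called once, Ifit2 with the combination and Ifit3b with anti-PD1, both against regorafenib. Ifit2 had means of 5.26 ± 0.645 CPM (SD, n = 4) with regorafenib and 7.98 ± 1.76 (n = 5) with the combination, whose lowest library lay above the highest regorafenib library, a difference of 0.60 ± 0.18 (SE; edgeR adjusted p = 0.0398). Ifit3b was near 1.41 ± 0.354 CPM with regorafenib and 2.50 ± 0.864 with anti-PD1, and differed by 0.84 ± 0.25 (SE; edgeR adjusted p = 0.0456).

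OAS proteins make short adenylate chains that activate an RNA-cutting enzyme. Oas2 stood at 5.20, 9.98, 6.71 and 9.65 CPM in vehicle 1 to 4 and 1.95, 9.44, 5.24 and 5.72 in regorafenib 1 to 4. Other groups gave 10.7, 9.30 and 24.3 CPM in anti-PD1 1 to 3 and 11.6, 6.62, 3.79, 9.10 and 7.47 in combination 1 to 5, and 7.68, 5.52 and 13.8 in anti-CD40 1 to 3. Regorafenib 1 was the lowest of the 19 libraries and anti-PD1 3 the highest. The difference between anti-PD1 and regorafenib was 1.40 ± 0.48 (SE; edgeR adjusted p = 0.0775), and regorafenib 2 overlapped the anti-PD1 range.

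Oasl2, an OAS-like protein with ubiquitin-like repeats, stood at 10.2, 34.1, 14.7 and 22.4 CPM in vehicle 1 to 4 and 4.93, 18.5, 11.9 and 13.7 in regorafenib 1 to 4. It was at 31.9, 26.0 and 54.8 CPM in anti-PD1 1 to 3 and 33.2, 9.52, 6.63, 32.7 and 23.4 in combination 1 to 5, and 14.0, 9.89 and 45.0 in anti-CD40 1 to 3. Vehicle 2 exceeded 2 of the 3 anti-PD1 libraries. Across the 6 OAS genes the median difference was 0.90 between anti-PD1 and vehicle and 1.26 between anti-PD1 and regorafenib, with Oas3 the largest in the latter at 1.68 ± 0.70 (SE; edgeR adjusted p = 0.131), and none of the 6 was called in any comparison of 2 groups.

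Among the other antiviral effectors, Rsad2 behaved differently from most members. Rsad2 (ENSMUSG00000020641.16, chromosome 12 from 26442746 to 26456452), known as viperin, makes a nucleotide that ends viral RNA chains. It stood at 6.31, 6.90, 7.14 and 7.89 CPM in vehicle 1 to 4 and 6.08, 8.95, 5.12 and 5.85 in regorafenib 1 to 4, and at 6.80, 9.41 and 13.4 CPM in anti-PD1 1 to 3 and 15.2, 8.57, 10.2, 12.5 and 12.7 in combination 1 to 5. Anti-CD40 gave 12.2, 9.28 and 11.2 CPM. All 5 combination libraries and all 3 anti-CD40 libraries were above all 4 vehicle libraries, with regorafenib 2 above the lowest combination library. Rsad2 rose by 0.86 ± 0.20 (SE; edgeR adjusted p = 0.0138) from regorafenib to the combination, and differed by 0.75 ± 0.20 (SE; edgeR adjusted p = 0.171) between the combination and vehicle. Its difference was 0.63 ± 0.22 (SE; edgeR adjusted p = 0.814) between anti-CD40 and vehicle. It was the member called in the test of any difference among the 5 groups (edgeR adjusted p = 0.0404). Its neighbour Cmpk2, a mitochondrial nucleotide kinase, differed by 0.34 between the combination and regorafenib with no call.

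Bst2, also called tetherin, holds budding virus at the cell surface. It stood at 7.19, 11.1, 7.35 and 10.0 CPM in vehicle 1 to 4 and 6.13, 10.1, 8.28 and 8.16 in regorafenib 1 to 4. Levels were 14.0, 11.3 and 17.4 CPM in anti-PD1 1 to 3 and 11.5, 8.10, 6.13, 9.43 and 8.97 in combination 1 to 5, and 9.03, 7.10 and 11.4 in anti-CD40 1 to 3. Each anti-PD1 library was above each vehicle and each regorafenib library. Bst2 rose from regorafenib to anti-PD1 by 0.80 ± 0.22 (SE; edgeR adjusted p = 0.0354) and differed from vehicle by 0.68 ± 0.22 (SE; edgeR adjusted p = 0.299). Between the combination and anti-PD1 its difference was -0.69 ± 0.21 (SE; edgeR adjusted p = 0.228).

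Mx1, a GTPase that traps viral particles and is disrupted in many inbred mouse strains, was among the lowest members. It stood at 0.516, 2.02, 1.23 and 0.934 CPM in vehicle 1 to 4 and 0.860, 1.37, 1.58 and 0.975 in regorafenib 1 to 4. It reached 2.14, 1.38 and 2.96 CPM in anti-PD1 1 to 3 and 2.47, 1.18, 0.613, 4.09 and 2.64 in combination 1 to 5, and 0.940, 0.765 and 3.95 in anti-CD40 1 to 3, with combination 4 and anti-CD40 3 the highest. No comparison separated its groups, and its difference between anti-PD1 and vehicle was 0.91 ± 0.61 (SE; edgeR adjusted p = 0.678). Ifi44, an interferon-induced cytoplasmic protein, stood at 2.03, 7.05, 3.41 and 5.08 CPM in vehicle 1 to 4 and 1.83, 4.16, 4.00 and 3.63 in regorafenib 1 to 4. It was at 8.21, 5.42 and 14.1 CPM in anti-PD1 1 to 3 and 7.79, 4.20, 1.89, 8.42 and 5.13 in combination 1 to 5, and 3.65, 2.08 and 8.61 in anti-CD40 1 to 3, so vehicle 2 exceeded anti-PD1 2. Ifi44 differed by 1.44 ± 0.54 (SE; edgeR adjusted p = 0.0998) between anti-PD1 and regorafenib. Eif2ak2, the kinase PKR that stops translation, had the smallest share of variance between groups (7.05%) and differed by 0.16 between anti-PD1 and vehicle. Samd9l, Rtp4 and Mx2 were not called in any comparison, with differences of 0.55, 1.44 and 1.36 between anti-PD1 and regorafenib.

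The PARP genes and their partner Dtx3l came next. Parp14, an enzyme that adds ADP-ribose to proteins, stood at 15.6, 19.5, 19.8 and 16.7 CPM in vehicle 1 to 4 and 14.0, 15.8, 17.3 and 18.9 in regorafenib 1 to 4. It stood at 28.8, 24.4 and 32.6 CPM in anti-PD1 1 to 3 and 26.6, 17.3, 16.3, 28.6 and 23.1 in combination 1 to 5, and 17.2, 14.3 and 27.6 in anti-CD40 1 to 3. The lowest anti-PD1 library was above the highest vehicle library and the highest regorafenib library. Parp14 rose by 0.79 ± 0.21 (SE; edgeR adjusted p = 0.0354) from regorafenib to anti-PD1, and differed from vehicle by 0.68 ± 0.21 (SE; edgeR adjusted p = 0.295). Sp100, a nuclear body protein, also rose from regorafenib to anti-PD1 (0.55 ± 0.16 SE, edgeR adjusted p = 0.0419), while Dtx3l (0.63) and Parp9 (0.67), which form one ligase complex, were not called.

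The IFI200 and Schlafen families held the 2 members that followed the shared pattern least, Ifi203 and Slfn5. Ifi204, a DNA-binding protein of the interferon response, stood at 10.8, 16.9, 17.5 and 13.5 CPM in vehicle 1 to 4 and 12.3, 14.4, 14.7 and 15.0 in regorafenib 1 to 4. Its levels reached 17.2, 16.6 and 30.2 CPM in anti-PD1 1 to 3 and 24.0, 17.6, 15.7, 23.7 and 23.6 in combination 1 to 5, and 13.1, 16.4 and 19.7 in anti-CD40 1 to 3. The lowest combination library lay above every regorafenib library, and the difference was 0.57 ± 0.19 (SE; edgeR adjusted p = 0.069). Ifi203, its relative, rose from 7.32 ± 0.655 CPM (SD, n = 4) with regorafenib to 10.8 ± 2.25 (n = 5) with the combination, by 0.56 ± 0.17 (SE; edgeR adjusted p = 0.0485).

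Slfn5 (ENSMUSG00000054404.13, chromosome 11 from 82951349 to 82964840), a Schlafen protein that acts in the nucleus, was called in both comparisons with regorafenib. It stood at 33.9, 26.1, 26.3 and 27.8 CPM in vehicle 1 to 4 and 22.1, 25.4, 28.2 and 26.5 in regorafenib 1 to 4, 33.3, 34.0 and 37.4 CPM in anti-PD1 1 to 3 and 35.9, 32.0, 32.6, 30.9 and 28.6 in combination 1 to 5, and 34.8, 38.7 and 28.4 in anti-CD40 1 to 3. Vehicle 1, the library lowest for most other members, was the highest vehicle library for Slfn5. The gene rose by 0.45 ± 0.11 (SE; edgeR adjusted p = 0.0278) from regorafenib to anti-PD1 and by 0.32 ± 0.10 (SE; edgeR adjusted p = 0.043) from regorafenib to the combination, and its groups did not overlap in either. Slfn8 stood at 2.22, 3.02, 2.29 and 1.25 CPM in vehicle 1 to 4 and 2.06, 3.10, 1.86 and 3.19 in regorafenib 1 to 4, 3.99, 2.16 and 3.91 CPM in anti-PD1 1 to 3 and 3.20, 2.84, 2.45, 4.67 and 2.89 in combination 1 to 5, and 2.77, 2.08 and 2.702 in anti-CD40 1 to 3, and no test called it.

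Of the 4 remaining members, 3 were called between anti-PD1 and regorafenib. Trim30a, which restrains NF-kappa-B signalling, rose from 4.01 ± 0.194 CPM (SD, n = 4) with regorafenib to 6.48 ± 1.56 (n = 3) with anti-PD1, by 0.69 ± 0.18 (SE; edgeR adjusted p = 0.031). Ifi27, a mitochondrial protein, rose by 0.35 ± 0.10 (SE; edgeR adjusted p = 0.0359), and Ifi35 by 0.48 ± 0.14 (SE; edgeR adjusted p = 0.0419). Xaf1, which promotes cell death, was not called. It stood at 5.20, 9.98, 7.35 and 10.1 CPM in vehicle 1 to 4 and 3.44, 7.35, 5.69 and 7.54 in regorafenib 1 to 4, 10.2, 10.4 and 17.0 CPM in anti-PD1 1 to 3 and 12.8, 5.44, 4.90, 10.7 and 9.76 in combination 1 to 5, and 6.21, 6.23 and 15.8 in anti-CD40 1 to 3. All anti-PD1 libraries exceeded all regorafenib libraries for Xaf1 (1.05 ± 0.40 SE, edgeR adjusted p = 0.102).

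In the comparison of anti-PD1 with vehicle, all 41 members were higher with anti-PD1, by a median of 0.62 on the log2 scale (range 0.16 to 1.23) against a median of 0.00 for all tested genes. None was called by edgeR, and none by DESeq2 or limma, in a comparison where 0% of all genes passed (smallest adjusted p of a member 0.231). An unadjusted p under 0.05 was reached by 20 of the 41, against 9.32% of all genes. Every anti-PD1 library was above every vehicle library in 14 of the 41, against 4.59% of all genes. The members moved together between libraries (median r 0.907 with group means removed). Such counts, here and in the comparisons below, are therefore not counts of separate observations. The 3 members with the smallest p were Trim30a (0.67 ± 0.18 SE, edgeR adjusted p = 0.231), Ifi27 (0.34 ± 0.10 SE, edgeR adjusted p = 0.246) and Parp14 (0.68 ± 0.21 SE, edgeR adjusted p = 0.295). Without anti-PD1 3 the median was 0.38. Summed levels of 7 pan-leukocyte genes were 94.3 to 103 CPM with anti-PD1 and 47.9 to 78.9 CPM with vehicle, and all 7 had an unadjusted p under 0.05 with none called. Those of 4 monocyte genes were 14.6 to 19.9 and 7.89 to 12.3 CPM, and those of 5 dendritic cell genes 11.8 to 16.0 and 6.38 to 9.02 CPM. The 7 pan-leukocyte genes were also all higher with regorafenib than with vehicle (median 0.32), where 37 of the 41 members were lower. Of these 7, 3 had an unadjusted p under 0.05 there, against 24.5% of all genes, and none was called. The part of these cells in the result was not tested.

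Anti-PD1 against regorafenib held the most calls. Of the 41 members, 9 rose and none fell (edgeR, adjusted p under 0.05), where 8.34% of all genes were called and 4.18% were called higher. They were Slfn5, Trim30a, Parp14, Bst2, Herc6, Ifi27, Sp100, Ifi35 and Ifit3b. The median over all 41 was 0.80 (range 0.21 to 1.68), 36 had an unadjusted p under 0.05 against 28.2% of all genes, and 33 had every anti-PD1 library above every regorafenib library against 13.2%. This comparison shares the anti-PD1 libraries with the one against vehicle, where the same 9 had differences of 0.29, 0.67, 0.68, 0.68, 0.65, 0.34, 0.44, 0.41 and 0.57, in that order. The number of calls changed when 1 library was left out. It was 0 without regorafenib 1, regorafenib 4, anti-PD1 1 or anti-PD1 2, 1 without anti-PD1 3, 2 without regorafenib 3, and 15 without anti-CD40 3. The members' median stayed between 0.63 and 0.94 in the runs that left out a library. The count was 25 by DESeq2, 13 by limma and 20 when only these 2 groups entered the fit. The shares of all genes called in these runs are not given here, so the counts cannot be read as particular to the members. With the muscle score as a covariate 0 members and 0 of all genes were called, while the members' median was 1.13. Summed levels of 6 fibroblast genes were 789 to 1154 CPM with anti-PD1 and 589.8 to 716 CPM with regorafenib, and their part in the result was not tested.

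**Figure D3:**
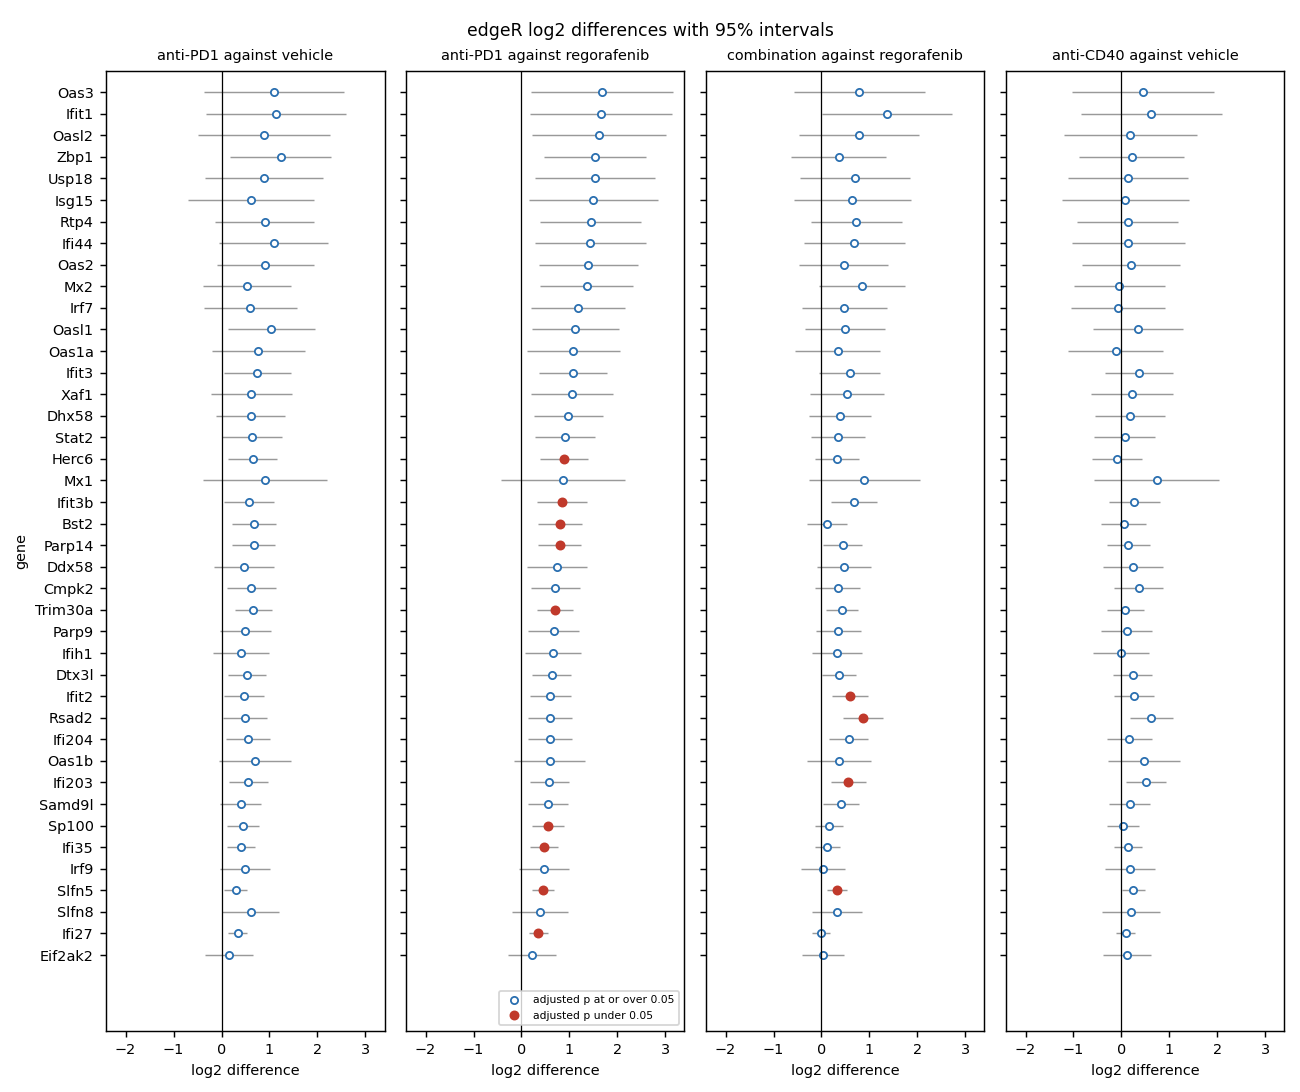
Log2 differences of the 41 members (edgeR, points) with 95% intervals (lines) in 4 comparisons, ordered by the difference between anti-PD1 and regorafenib; red points have an adjusted p under 0.05. All points lie right of 0 for anti-PD1, 9 of them red against regorafenib and 0 against vehicle, and 4 are red for the combination against regorafenib.

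Between the combination and regorafenib the members were called about as often as all genes. Of the 41 members, 40 were higher with the combination than with regorafenib (median 0.44, range -0.01 to 1.36), and 4 were called, all higher: Rsad2 (0.86), Ifit2 (0.60), Slfn5 (0.32) and Ifi203 (0.56). The background was 10.5% of all genes called, 5.67% called higher and 28.1% with an unadjusted p under 0.05, which 11 of the 41 reached, so the members' counts lie near the background. Without regorafenib 4 no member was called, without regorafenib 1, regorafenib 2 or combination 1 there was 1, and without regorafenib 3, combination 2, combination 3, combination 4 or anti-CD40 1 there were 2. Rsad2 kept its call in 18 of the 19 runs that left out a library, losing it without regorafenib 4. The sum of 8 muscle genes did not overlap between these groups either (28245 to 37829 CPM with the combination), and with the muscle score as a covariate 0 members and 1 of all genes were called, while the members' median was 0.95.

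Against vehicle and against anti-PD1 alone, the combination gave no calls. Of the 41 members, 35 were higher with the combination than with vehicle (median 0.18), 6 with an unadjusted p under 0.05, where 0.0237% of all genes were called by edgeR and 10.8% had such a p. The smallest p-values belonged to Rsad2, Ifi203 (0.54 ± 0.17 SE, edgeR adjusted p = 0.275) and Ifit2 (0.47 ± 0.18 SE, edgeR adjusted p = 0.352), and DESeq2 called 1 member, Rsad2, and limma none. The median was 0.02 without vehicle 1, 0.03 without combination 1 and 0.05 without combination 4, and was 0.34 without vehicle 2 and 0.29 without combination 3. Compared with anti-PD1, 39 of the 41 were lower with the combination (median -0.37), 6 with an unadjusted p under 0.05, where 0.00591% of all genes were called and 9.94% had such a p. These 6 were Ifi27 (-0.36 ± 0.09 SE, edgeR adjusted p = 0.147), Bst2 (-0.69 ± 0.21 SE, edgeR adjusted p = 0.228), Ifi35 (-0.36 ± 0.13 SE, edgeR adjusted p = 0.337), Sp100, Zbp1 and Herc6. DESeq2 called 1 member there, Ifi27, and limma none. Without anti-PD1 3 the median was -0.24.

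No member was called with regorafenib alone. Of the 41 members, 37 were lower than with vehicle (median -0.17, range -0.88 to 0.23), but none had an unadjusted p under 0.05, in a comparison where 24.5% of all genes did and 6.32% were called by edgeR; DESeq2 and limma called no member. The smallest p-values were those of Mx2 (-0.82 ± 0.45 SE, edgeR adjusted p = 0.261), Slfn5 (-0.16 ± 0.10 SE, edgeR adjusted p = 0.361) and Isg15 (-0.88 ± 0.59 SE, edgeR adjusted p = 0.38). The 95% interval of Isg15 ran from -2.15 to 0.387. Without regorafenib 1 the median was -0.08, and without vehicle 1 or regorafenib 2 it was -0.29 and -0.26. In these libraries 4 of 8 muscle genes fell and 4 of 10 keratinocyte genes rose, while 5 neutrophil genes summed to 1456 to 3074 CPM with regorafenib and 7.47 to 1425 CPM with vehicle. All 5 neutrophil genes were higher with regorafenib, but 1 had an unadjusted p under 0.05 and none was called. The sum does not show which of the 5 carry it. The part of these cell types in the result was not tested beyond the muscle score. With that score as a covariate the median was -0.66 with 0 members called.

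Anti-CD40 gave no call against vehicle either. There 36 of the 41 members were higher (median 0.18), 3 with an unadjusted p under 0.05 and none called by edgeR, DESeq2 or limma, where 0% of all genes were called and 6.06% had such a p. The 3 were Rsad2 (0.63 ± 0.22 SE, edgeR adjusted p = 0.814), Ifi203 (0.51 ± 0.20 SE, edgeR adjusted p = 0.814) and Slfn5 (0.25 ± 0.11 SE, edgeR adjusted p = 0.817). The median rested on 1 library: without anti-CD40 3 it was -0.21, and without anti-CD40 2 it was 0.38. Without vehicle 1 it was 0.05, without vehicle 2 it was 0.32, and without anti-CD40 1 it was 0.31.

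The 4 groups that cross regorafenib with anti-PD1 also allow each drug to be averaged over the other. The effect of anti-PD1 so averaged was positive for all 41 members (median 0.55), with 31 at an unadjusted p under 0.05 against 22.3% of all genes, and 2 were called where 0.544% of all genes were. These were Rsad2 (0.67 ± 0.15 SE, edgeR adjusted p = 0.0481) and Trim30a (0.55 ± 0.12 SE, edgeR adjusted p = 0.0481), followed by Ifi203 (0.56 ± 0.13 SE, edgeR adjusted p = 0.0535). No member was called without any 1 of vehicle 1, 2 and 4, regorafenib 1 to 4, anti-PD1 1 to 3, combination 1, 3, 4 and 5, or anti-CD40 1; the count was 1 without vehicle 3, 4 without combination 2, 6 without anti-CD40 2 and 9 without anti-CD40 3. The averaged effect of regorafenib was negative for 38 of 41 (median -0.28), with 8 at an unadjusted p under 0.05 (19.1% of all genes) and none called by edgeR, DESeq2 or limma (1.33% of all genes). The 3 smallest p-values there were those of Ifi27 (-0.19 ± 0.06 SE, edgeR adjusted p = 0.134), Bst2 (-0.41 ± 0.15 SE, edgeR adjusted p = 0.146) and Herc6 (-0.40 ± 0.16 SE, edgeR adjusted p = 0.19). For the interaction, which asks whether the 2 drugs together differ from the sum of each, 1 member had an unadjusted p under 0.05 (15.8% of all genes) and none was called by edgeR, DESeq2 or limma (0.627% of all genes). That member was Ifi27 (-0.35 ± 0.13 SE, edgeR adjusted p = 0.197), followed by Bst2 (-0.56 ± 0.29 SE, edgeR adjusted p = 0.365) and Ifi35 (-0.29 ± 0.19 SE, edgeR adjusted p = 0.471). The median interaction was -0.18, and 0.09 without anti-PD1 3. In the test of any difference among the 5 groups, Rsad2 was called (4.49% of all genes) and 14 members had an unadjusted p under 0.05 (25.9% of all genes). The next were Slfn5 (edgeR adjusted p = 0.0569) and Trim30a (edgeR adjusted p = 0.0592). The call of Rsad2 held in 6 of the 19 runs that left out a library; no member at all was called without vehicle 2, vehicle 4, regorafenib 1, 3 or 4, anti-PD1 2, combination 1, 4 or 5, or anti-CD40 1, and the count was 2 without anti-CD40 2 and 5 without anti-CD40 3.

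**Figure D4:**
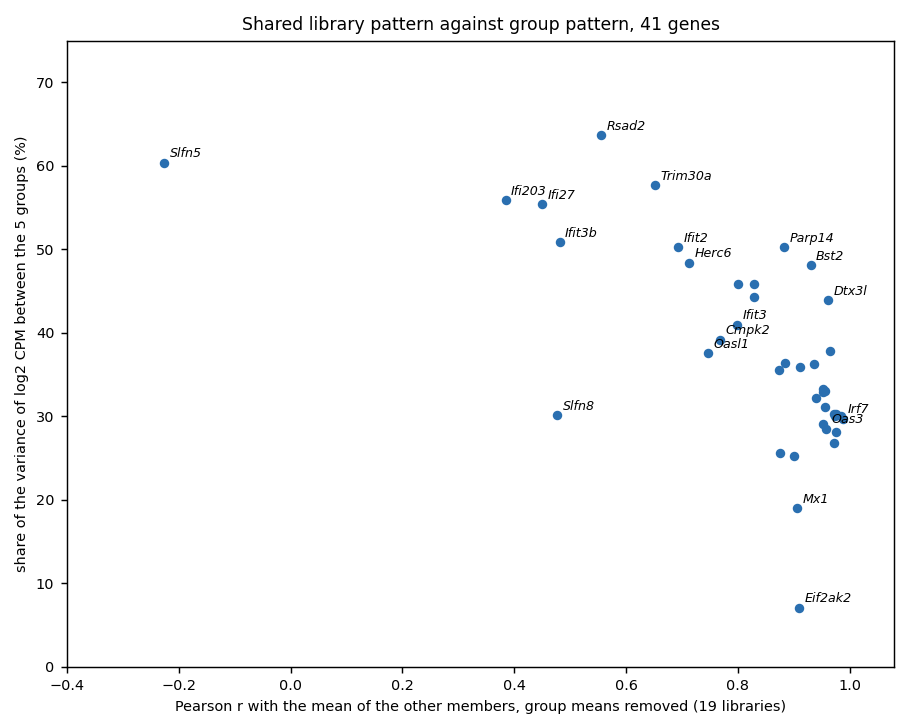
Each point is 1 of the 41 members: along the x axis its Pearson r with the mean of the other members over 19 libraries after group means were removed, along the y axis the share of its variance of log2 CPM that lies between the 5 groups. Most members sit right of 0.8, while Slfn5, Ifi203, Ifi27, Ifit3b, Rsad2, Trim30a and Ifit2 sit left of it with over 50% between groups.

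The members differed in how closely they followed the rest of the module and in how much of their variance lay between groups. The highest r with the rest of the module, group means removed, were those of Irf7 (0.988), Oasl2 (0.985), Usp18 (0.976), Ifit1 (0.975) and Ifi44 (0.973), with 29.7%, 30.1%, 30.2%, 28.1% and 30.01% of their variance between groups. Below 0.5 were 5 members: Slfn5 (-0.226), Ifi203 (0.385), Ifi27 (0.45), Slfn8 (0.477) and Ifit3b (0.481). Ifit3b held 21 to 77 counts per library and Slfn8 24 to 97, and counting noise can lower r at such counts. Mx1, with 11 to 95 counts and a wider spread, had r = 0.907. The share of variance between groups was 63.7% for Rsad2, 60.4% for Slfn5, 57.7% for Trim30a and 55.9% for Ifi203. The measures did not run strictly opposite: Slfn8, low in r, had 30.1% between groups, while Parp14 (r = 0.883) had 50.3% and Bst2 (r = 0.93) had 48.1%. The ISRE letters were found in members of high and of low r. The median r was 0.920 in the 16 members with the core in a window and 0.901 in the 13 with a window and no core, and the median difference between anti-PD1 and regorafenib was 0.77 and 0.71. Irf7, Oasl2 and Ifi44 had no core in their windows, while Slfn5, Slfn8, Ifi203 and Ifit3b had one.

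Genes outside the module were ranked by how alike they varied. Those with the highest Pearson r of log2 CPM with the mean z-score of the members, over 19 libraries, were Gbp3 (r = 0.959), Trim21 (0.952), Irgm1 (0.950), Parp12 (0.947), Ddx60 (0.941), Phf11d (0.929), Lgals3bp (0.918), Igtp (0.917) and Nmi (0.916). Trim21, Ddx60 and Nmi were in none of the gene lists used here. These points share their libraries, and the correlations carry no test.

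The ligands themselves were at the edge of detection. Of 21 interferon ligand genes, 16 had no count in any library, Ifnb1 among them, where a count of 0 allows up to 0.12 to 0.179 CPM depending on the library (3 counts of its total, counting error only). Ifna7, Ifne and Ifnl2 had 1 count each in all, Ifnz had 14 over 8 libraries, and Ifng, the gene of interferon gamma, had 24 over 12. None was tested. The 6 receptor genes were steady: their summed level was 108 to 125 CPM over the 19 libraries, and none was called in any comparison of 2 groups, where at most 1 of the 6 had an unadjusted p under 0.05. Ifnar1 stood at 26.8 ± 1.73 CPM (SD, n = 4) with vehicle, 26.7 ± 1.62 (n = 4) with regorafenib and 26.3 ± 0.476 (n = 3) with anti-PD1.

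Among signalling genes of the JAK-STAT and IRF families, Irf1 (0.73 ± 0.17 SE, edgeR adjusted p = 0.0263) and Irf8 (0.78 ± 0.21 SE, edgeR adjusted p = 0.0353), a factor of myeloid cells, rose from regorafenib to anti-PD1. Their differences from vehicle were 0.76 and 1.12 with no call. Irf5 fell from regorafenib to the combination (-0.32 ± 0.10 SE, edgeR adjusted p = 0.047). Of 14 tested genes of nucleic acid sensing upstream of interferon, none was called between anti-PD1 and regorafenib. Between the combination and regorafenib Tlr8, an endosomal RNA receptor, rose (1.10 ± 0.28 SE, edgeR adjusted p = 0.0194) and Myd88, its adaptor, fell (-0.34 ± 0.09 SE, edgeR adjusted p = 0.0258), and Myd88 was higher with regorafenib than with vehicle (0.34 ± 0.10 SE, edgeR adjusted p = 0.0441).

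Other interferon-stimulated genes, outside the 41, gave a like picture. Of 38 tested, 10 rose and none fell from regorafenib to anti-PD1 (median 0.56), where 4.18% of all genes were called higher. Among the 10 were Uba7, the activating enzyme of Isg15 (0.73 ± 0.16 SE, edgeR adjusted p = 0.0201), and Ube2l6, its conjugating enzyme (0.81 ± 0.19 SE, edgeR adjusted p = 0.0245). Against vehicle 37 of 38 were higher with anti-PD1 (median 0.60). An unadjusted p under 0.05 was reached by 22, against 9.32% of all genes, and none was called. Between the combination and regorafenib 2 of the 38 rose, Tor1aip1 and Helz2, where 5.67% of all genes were called higher. Tor1aip1 was lower with regorafenib than with vehicle (-0.29 ± 0.07 SE, edgeR adjusted p = 0.0286).

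Genes known mainly from the interferon gamma response also rose. For anti-PD1 averaged over regorafenib 5 of 18 tested were called (median 0.78), where 0.544% of all genes were. From regorafenib to anti-PD1, 12 of the 18 rose and none fell (median 1.18), where 4.18% of all genes were called higher. Gbp4, a guanylate-binding protein, rose by 1.25 ± 0.22 (SE; edgeR adjusted p = 0.0135) and Gbp2 by 1.74 ± 0.35 (SE; edgeR adjusted p = 0.0195); their differences between anti-PD1 and vehicle were 1.10 and 1.67 (edgeR adjusted p = 0.144 and 0.158). The median over these 18 was 0.96 between anti-PD1 and vehicle, against 0.62 for the 41 members, a difference between lists that was not tested. Of the 18, 16 had an unadjusted p under 0.05 between anti-PD1 and vehicle, against 9.32% of all genes, and none was called. The summed level of the 19 listed genes was 306 to 512 CPM with anti-PD1 and 127 to 203 CPM with vehicle.

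**Figure D5:**
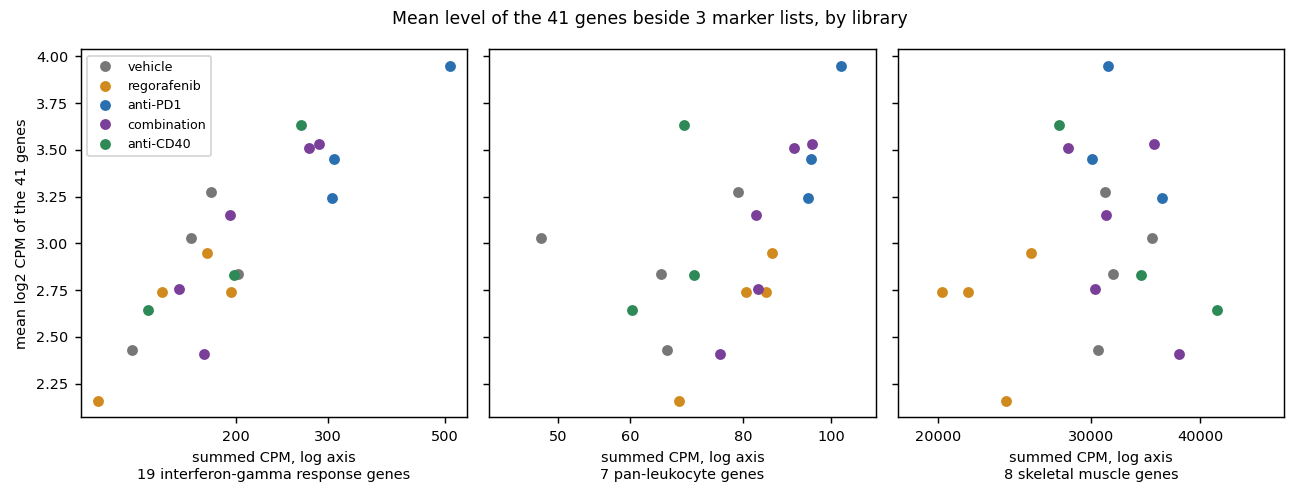
Mean log2 CPM of the 41 genes (y axis) against the summed CPM of 3 marker lists (x axes, log scale), 1 point per library and coloured by group. Libraries high for the module are high for the interferon gamma list, anti-PD1 3 highest for both, while the regorafenib libraries stand apart on the muscle axis at 20235 to 25578 CPM. On the pan-leukocyte axis anti-CD40 3, the next highest for the module, lies at 68.8 CPM, within the range of the vehicle libraries.

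Markers of the cells that could carry the response moved with some of these results, and their part was not tested beyond the covariates named. No gene of the cell lists given here was at 0 in every library. T and NK cell genes (9) summed to 3.89 to 5.97 CPM with vehicle, 7.17 to 11.0 with regorafenib, 6.95 to 12.4 with anti-PD1 and 7.62 to 11.6 with the combination. Of the 7 tested, 3 rose from vehicle to regorafenib, where 6.32% of all genes and no member of the module were called. Macrophage genes (8) summed to 89.99 to 108 CPM with regorafenib and 125 to 164 with anti-PD1. From the first to the second 5 of the 8 rose, where 4.18% of all genes were called higher. Markers of plasmacytoid dendritic cells, the main makers of type I interferon, summed to 2.66 to 3.42 CPM with vehicle and 3.95 to 4.62 with anti-PD1, and none of the 3 tested was called. Salivary gland genes, from 3.83 CPM in vehicle 3 to 16106 in anti-PD1 1, differed widely between libraries, and anti-PD1 3, the library highest for the module, had 10.5 CPM.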

How the data were processed

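RNA was measured in 19 tumour samples, grouped by their titles. Per the labels' protocols, RNA came from a kit that also recovers DNA and was made into stranded polyA libraries. The submitters' processing notes list STAR 2.7.2a, cutadapt 2.4 and the build GRCm38. How reads were counted, with which annotation and whether by strand, is not given in the sources used here. The authors deposited 1 table of whole-number counts per gene, not normalized. Symbols came from GENCODE M21 (55227 of 55487 IDs matched without version), promoter windows from RefSeq on GRCm38.p6.

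edgeR 4.0.16 (R 4.3.3) removed low counts by group (16909 genes kept, 99.92% of counts), scaled by TMM and fitted a robust quasi-likelihood model with 1 mean per group (14 residual degrees of freedom), in 11 tests, each adjusted by Benjamini-Hochberg over all tested genes at 0.05. P-values are two-sided. Log2 CPM used a prior count of 2, and the heatmap none. RPKM used exon union lengths. A marker score was a list's mean log2 CPM. The fit was tested on simulated data. Alternatives tried were DESeq2 1.42.0, limma 3.58.1, scaling by RLE, leaving out the filter, only the groups compared, a replicate block, muscle and salivary gland scores as covariates, and leaving out each library. Each of the 28 pairs of libraries within a group differed by more than sampling noise.

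The members and lists were chosen with earlier results of these data known. Named were 18 set members with values in every library, the 3 with the smallest p in each comparison, up to 5 genes of each other list by p, and the non-members most like the module; other members given with values were named because they were called or complete a family. Results for 1 non-member gene are not reported here. Figures used matplotlib 3.10.9 in Python 3.11.15.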

Additional observations from a re-analysis of the deposited data

Results flagged for a closer look

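In the vehicle, regorafenib and combination groups, single libraries stood apart from their group in 2 of the genes described in every library. Ifit3 was higher in vehicle 2, at a log2 CPM of 2.43, than in the other vehicle libraries, whose nearest was 1.82, a gap that took 0.944 of the group's range. Ifi44 was lower in regorafenib 1, at a log2 CPM of 0.95, than in the other regorafenib libraries, whose nearest was 1.90, a gap of 0.832 of the range. Such a gap is reached by chance in about 1 of 20 groups. The anti-PD1 and anti-CD40 groups, with 3 libraries each, were not screened. All genes described in every library were screened across the other groups, so some gaps of this size are expected by chance. The gaps of Ifit3 and Ifi44 cannot be told apart from such chance gaps. Vehicle 2 was the highest vehicle library for 28 of the 41 genes and regorafenib 1 the lowest regorafenib library for 37.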

How the results depend on the processing

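No direction of a member's called difference reversed under any alternative, and no scaling moved the median of all genes by over 0.1 on the log2 scale. The 9 members called between anti-PD1 and regorafenib became 5 with no filter, 20 with only the groups compared, 25 with DESeq2 and 0 to 15 when 1 library was left out. The 4 between the combination and regorafenib became 0 to 6 when 1 library was left out. The 2 for anti-PD1 averaged over regorafenib became 4 with RLE scaling, 4 with no filter, 0 with the salivary gland score, 8 with only the groups compared, 10 with limma, 11 with DESeq2 and 0 to 9 without 1 library. The 1 for any difference among groups became 2 with RLE scaling, 2 with no filter, 4 with the salivary gland score, 5 with limma, 10 with DESeq2 and 0 to 5 without 1 library. DESeq2 called 1 member between the combination and vehicle and 1 between the combination and anti-PD1, where edgeR called 0. Here and above, counts under an alternative or without 1 library mostly stand without the share of all genes called in that run. They cannot be read as particular to the members.

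With the muscle score as a covariate each of these 4 counts was 0, and the medians were -0.66 for regorafenib against vehicle, 0.95 for the combination against regorafenib and 0.34 for the interaction (-0.18 without it); the regorafenib libraries do not overlap the others in that sum, so the 2 cannot be told apart. With the replicate number as a block (replicate block) the counts were 2 between anti-PD1 and regorafenib, 2 between the combination and regorafenib, 0 for anti-PD1 averaged and 0 for any difference. These numbers come from the sample titles. The names of the count columns carry other numbers for vehicle 3 and 4 and for regorafenib 3 and 4, and pairing by those was not tested. The title numbers are not shown to pair samples: 15 of 33 same-numbered pairs correlated over 0.1 (-0.45 to 0.54), and 6 of 19 libraries matched best with their own number. The cause of these changes was not tested. The members' median SE for anti-PD1 against vehicle was 0.28 with 3 and 4 libraries.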
